A study of Homo sapiens with 9 samples.

Results

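The 7 genes described here are *TFAP2A*, *TFAP2B* and *TFAP2C*, *DLX5*, *GABRP*, *WNT6* and *VTCN1*, the rows with these symbols among 36601 gene rows that the D4 and D6 tables share. They were measured in human extra-embryoids (hEEs), 3D structures that self-organized from ESI017, a wild-type human embryonic stem cell line held in expanded potential medium on mouse feeder cells before aggregation. Aggregates formed under low oxygen in the study's spontaneous differentiation medium, with the ROCK inhibitor Y27632 on the first day. They were moved to a modified embryo culture medium before either library was made, so the later library had longer in it. Structures with an inner and an outer compartment were picked under the microscope at day 4 (D4) and day 6 (D6), so both libraries describe aggregates chosen for that shape. Each day was 1 single-cell RNA-seq library that pooled aggregates from stem cell cultures of several clones and passages of the 1 line, and the 2 libraries cannot tell the day from the library. No test between days or cells was therefore made, and every interval in brackets is an exact 95% interval that covers counting error only.

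AP-2 factors are transcription factors that bind DNA as dimers and act in surface ectoderm, trophoblast, germ cells and neural crest. *TFAP2A* and *TFAP2C* are also among the genes that pluripotent cells switch on when bone morphogenetic protein (BMP) signalling directs them towards amnion, the thin ectoderm that closes over the epiblast. *DLX5* is a homeobox factor of ectoderm and of the amnion, *GABRP* encodes a GABA receptor subunit, *WNT6* a secreted ligand of surface epithelia, and *VTCN1* the cell-surface immune checkpoint ligand B7-H4. *GABRP* and *VTCN1* are used as markers of later amnion.

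After the study's limits on unique molecular identifiers (UMIs, each 1 captured transcript) per cell and on mitochondrial share, 9151 cells were kept at D4 and 10097 at D6. The embryonic gate held cells with at least 5 *POU5F1* UMIs, at least 1 *SOX2* UMI and at most 2 *FN1* UMIs, with 3716 members at D4 and 5054 at D6. Cells of the hypoblast gate had at least 3 *FN1* UMIs, none of *SOX2* and at most 5 of *POU5F1*, 4061 and 3567 cells. Of 7 epiblast markers the gates did not use, 5 were at least 2-fold higher in embryonic than hypoblast cells on each day, with median log2 ratios of 1.99 at D4 and 2.01 at D6. *UTF1*, an epiblast factor, was at 75.3 UMIs per 1000000 (CPM) in embryonic and 2.92 in hypoblast cells of D6. The other 2 did not separate the gates: *LIN28A* was at 338 and 273 CPM, and *TDGF1* was lower in embryonic cells, by log2 ratios of -0.30 [-0.33, -0.26] at D4 and -0.43 [-0.47, -0.39] at D6. All 7 hypoblast markers were at least 2-fold lower in embryonic cells on each day, with medians of -5.81 and -6.67, *GATA6*, an endoderm factor, being at 2.91 and 297 CPM at D6. Median depth was 15157.5 and 14225.5 UMIs in embryonic cells and 11012 and 10902 in hypoblast cells, in the order D4 and D6. Cells of neither gate were kept as 2 further classes, those with at most 2 *FN1* UMIs (726 and 843 cells) and those with 3 or more (648 and 633). The second of these was the deepest, with medians of 18478 and 18907 UMIs, and the Scrublet doublet caller marked 41.5% and 51.0% of it, against 1.48% and 1.54% of embryonic cells. The libraries shared 40 barcodes, 27 of them in cells kept on both days.

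The genes lie apart in the genome (GRCh38.p14): *TFAP2A* (ENSG00000137203) at chr6:10396677-10419659, *TFAP2B* (ENSG00000008196) at chr6:50818355-50847619, *TFAP2C* (ENSG00000087510) at chr20:56629306-56639283 and *DLX5* (ENSG00000105880) at chr7:97020396-97024831. *GABRP* (ENSG00000094755) is at chr5:170782720-170814047, *VTCN1* (ENSG00000134258) at chr1:117143587-117210927 and *WNT6* (ENSG00000115596) at chr2:218859805-218874233. The 3' end of *WNT6* overlaps the start of *WNT10A*, and *TFAP2A* contains the antisense genes *TFAP2A-AS1* and *TFAP2A-AS2*; whether counting used strand is not given in the sources used here. RefSeq promoter windows were found for 5 of the 7 genes, not for *TFAP2C* and *DLX5*. The 250 bases before a start were searched on both strands for the AP-2 motif GCCNNNGGC, held by 19.8% of 35116 such windows, and for TATAAA, held by 10.7%. Windows are shown for *TFAP2A*, the gene that most of the comparisons turn on, and for *WNT6*, which carries the AP-2 motif, with the matched letters in capitals. The *TFAP2A* window, chr6:10419660-10419909 on the minus strand, has a TATA match beginning 30 bases before the start and no AP-2 match, and the *WNT6* window, chr2:218859555-218859804 on the plus strand, has an AP-2 match beginning 17 bases before the start. A second *TFAP2A* window, chr6:10412392-10412641 on the minus strand, has neither motif. The *TFAP2B* window has a TATA match beginning 202 bases before the start and no AP-2 match, *VTCN1* has 1 AP-2 match, and the *GABRP* window has neither motif.
TFAP2A: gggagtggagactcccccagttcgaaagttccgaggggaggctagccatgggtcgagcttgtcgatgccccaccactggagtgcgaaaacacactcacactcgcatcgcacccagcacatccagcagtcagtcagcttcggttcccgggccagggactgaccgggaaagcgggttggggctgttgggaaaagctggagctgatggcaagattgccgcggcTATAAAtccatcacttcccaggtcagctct
WNT6: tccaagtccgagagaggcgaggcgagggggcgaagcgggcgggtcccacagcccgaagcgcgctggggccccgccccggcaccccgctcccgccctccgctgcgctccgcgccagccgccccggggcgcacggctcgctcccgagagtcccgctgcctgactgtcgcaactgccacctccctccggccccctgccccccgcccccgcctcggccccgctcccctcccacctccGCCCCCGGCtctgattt

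*TFAP2A* gained the most UMIs of the 7 genes between the days. In the embryonic gate it had 447 UMIs at D4, 7.73 CPM [7.03, 8.49], and 1500 at D6, 20.0 CPM [19.0, 21.1], a log2 ratio of 1.37 [1.22, 1.53]. It was seen in 8.72% [7.83, 9.67] of the cells at D4 and 13.7% [12.8, 14.7] at D6. With every cell thinned to the lower limit of the cell filter, the shares were 2.56% and 5.84%. Cells also held more of it: of its positive cells, 75% had a single UMI at D4 and 49.4% at D6, while cells with 3 or more UMIs numbered 28 and 189. In the hypoblast gate it had 26 and 19 UMIs, 0.544 and 0.455 CPM, never more than 1 in a cell, in 0.64% and 0.533% of cells. The log2 ratio of embryonic over hypoblast cells was 3.83 [3.26, 4.46] at D4 and 5.46 [4.81, 6.20] at D6, or 2.82 and 2.32 with gates that set no *SOX2* rule and no upper *POU5F1* limit. The antisense gene *TFAP2A-AS2* went from 24 to 90 UMIs in the embryonic gate, a log2 ratio of 1.53 [0.87, 2.25], and reads of the overlapping *TFAP2A* cannot be told apart from it without strand.

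*TFAP2C* was present in similar numbers of embryonic cells but moved little. It had 460 UMIs at D4, 7.96 CPM [7.25, 8.72], and 736 at D6, 9.84 CPM [9.14, 10.6], a log2 ratio of 0.31 [0.14, 0.48] that is short of 2-fold. Its share of cells was 10.4% [9.43, 11.4] and 12.0% [11.1, 12.9], or 2.61% and 3.44% after thinning. Of its positive cells, 85.2% and 83.5% had 1 UMI. In the hypoblast gate it had 10 and 13 UMIs, 4 of the latter in 1 cell. Embryonic over hypoblast, the log2 ratios were 5.25 [4.36, 6.32] and 4.98 [4.20, 5.90]. With looser gates, which let cells with both kinds of marker into the hypoblast gate, they were 2.91 and 2.24.

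*DLX5* was nearly absent from embryonic cells at D4 and present in a small set at D6. It had 3 UMIs in 3 cells at D4, 0.052 CPM [0.011, 0.152], and 59 UMIs in 40 cells at D6, 0.788 CPM [0.600, 1.02], a log2 ratio of 3.93 [2.31, 6.24]. The 10 highest cells held 29 of the 59 UMIs, 49.2%. In the hypoblast gate it went the other way in its point values, from 14 UMIs in 12 cells, 0.293 CPM [0.16, 0.491], to 5 UMIs in 5 cells, 0.120 CPM [0.039, 0.279], with a log2 ratio of -1.29 [-3.12, 0.27] whose interval includes 0. It was therefore lower in embryonic than hypoblast cells at D4, by a log2 ratio of -2.50 [-4.94, -0.65], and higher at D6, at 2.72 [1.42, 4.40], or 1.31 with the looser gates. These ratios rest on few UMIs: with an upper limit of 20000 UMIs a cell the D4 ratio was -1.74 [-4.24, 0.22], and after thinning those of D4 and D6 were -2.46 [-7.98, 0.59] and 1.61 [-0.25, 4.07], all with intervals that include 0. The difference between the days was not tested. Cells of neither gate had the highest *DLX5* levels of D6, 2.56 CPM [1.60, 3.87] where *FN1* was low and 1.47 CPM [0.858, 2.36] where it was not. Scrublet marked 51.0% of the latter cells, and the part of doublets in their levels was not tested.

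*GABRP* stayed low and even. It had 56 and 83 UMIs in the embryonic gate, 0.969 CPM [0.732, 1.26] and 1.11 CPM [0.883, 1.38], a log2 ratio of 0.20 [-0.31, 0.71], and 98.2% and 97.5% of its positive cells had a single UMI. The share of embryonic cells was 1.48% [1.12, 1.92] and 1.60% [1.28, 1.99]. The hypoblast gate had 24 and 20 UMIs, 0.502 and 0.479 CPM, in 0.566% and 0.449% of shallower cells. The log2 ratios of embryonic over hypoblast cells were 0.95 [0.24, 1.70] and 1.21 [0.49, 2.00]. The D4 ratio had an interval that includes 0 after thinning, at 0.766 [-0.545, 2.155], and with stricter gates, at 0.544 [-0.356, 1.516]. The D6 ratio fell short of 2-fold with the looser gates, at 0.86 [0.27, 1.48]. Its interval included 0 after thinning, at 0.91 [-0.52, 2.55]. After thinning, the shares of the gates were 0.377% [0.206, 0.631] against 0.222% [0.101, 0.420] at D4 and 0.317% [0.181, 0.514] against 0.140% [0.0455, 0.327] at D6, intervals that overlap. A single hypoblast cell held 5 of the 20 UMIs of D6. Without the 10 highest cells of each gate the D6 ratio was 2.72, from 71 embryonic and 6 hypoblast UMIs. Only 16 hypoblast cells had a UMI, against 81 embryonic cells, so dropping 10 from each gate raises the ratio by itself.

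**Figure D1:**
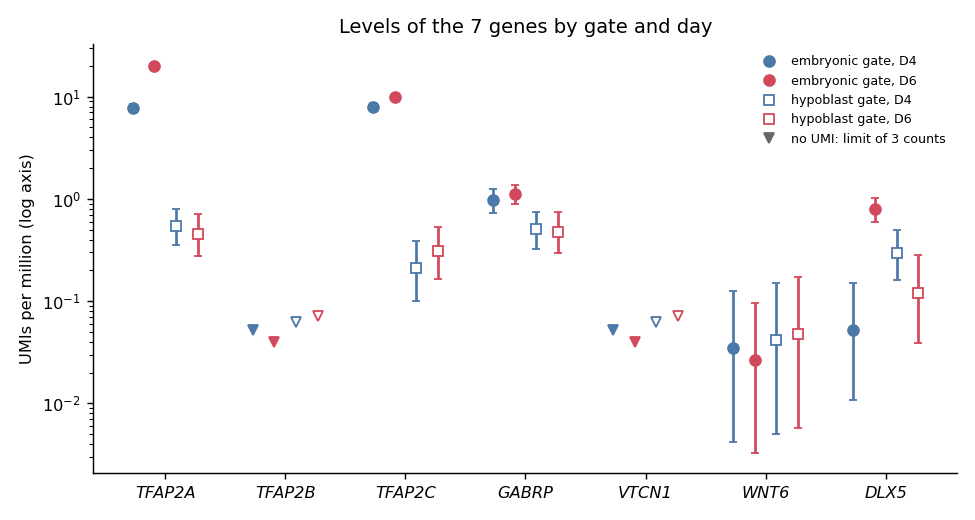
Levels of the 7 genes in UMIs per 1000000 on a log axis, in embryonic gate cells (filled circles) and hypoblast gate cells (open squares) of D4 (blue) and D6 (red), with exact Poisson 95% intervals. Triangles mark genes with no UMI, drawn at the level of 3 counts. *TFAP2A* rises from 7.73 to 20.0 CPM and *DLX5* from 0.052 to 0.788 in the embryonic gate, *TFAP2C* and *GABRP* lie close together on the 2 days, and *TFAP2B* and *VTCN1* have no UMI in either gate.

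Among all genes with at least 10 UMIs over the groups compared, called genes being those that differ by 2-fold or more with an interval that leaves out 0, 3.12% were higher in the embryonic gate at D6 than at D4. *TFAP2A* and *DLX5* were, 2 of the 4 members measured. The study had already named *TFAP2A*, *DLX5* and *GABRP* for the amnion state of the same libraries. The counts of members in this paragraph are therefore no independent evidence of direction. In the hypoblast gate 8.87% of genes were higher or lower and 0 of the same 4 members. With the looser gates *TFAP2A* was at 1.95 [1.54, 2.37] and *TFAP2C* at 1.08 [0.62, 1.54], both past 2-fold. The looser hypoblast gate added cells of neither gate with 3 or more *FN1* UMIs, where *TFAP2A* went from 38 to 202 UMIs and *TFAP2C* from 52 to 104. Against the hypoblast gate, 14.5% of genes were higher in embryonic cells at D4, *TFAP2A* and *TFAP2C* among them, and 14% were lower, *DLX5* among them. At D6, 19.3% were higher and all 4 members were, with *GABRP* no longer called under the looser gates or after thinning and *DLX5* no longer after thinning.

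The remaining 3 members were too rare to compare. No UMI of *VTCN1* was counted in kept cells of either day, which by a limit of 3 counts allows a share of up to 0.0328% of cells with a UMI at D4 and 0.0297% at D6. *TFAP2B* had 1 UMI at D4 and 2 at D6, all in cells of neither gate with 3 or more *FN1* UMIs. *WNT6* had 4 UMIs in 4 cells at D4 and 20 in 10 cells at D6. The embryonic and the hypoblast gate held 2 *WNT6* UMIs each on each day. The rest of D6, 7 UMIs where *FN1* was low and 9 where it was not, lay in 6 cells of neither gate. The highest 3 of these, with 6, 5 and 2 UMIs, also had 14, 7 and 3 UMIs of *ISL1*. This LIM homeobox factor marks amnion, and the paper also reports it in a subset of endoderm cells. The cell with 2 *WNT6* UMIs had 13 of *FN1* and 157 of *APOA1*, a hypoblast transcript. It and the cell with 6 lay in the class of which Scrublet marked 51.0%. The cell with 6 had 1 UMI each of *TFAP2B* and *DLX5* and 49 of *FN1*. Neither it nor the cell with 5 had a UMI of *TFAP2A* or *TFAP2C*, and the cell with 5 had no other member. Among the remaining cells of neither gate, each with 1 *WNT6* UMI, 1 had 3 UMIs of *ISL1*. The others had none of *ISL1* and 140 and 318 UMIs of *APOA1*. *WNT10A* had no UMI in any of these cells. Since *VTCN1* and *TFAP2B* were at or near 0, no cell class is named amnion here. That does not show such cells to be absent: the paper reports an amnion-like cluster in these libraries, with *ISL1*, *BMP4*, *TFAP2A* and *GABRP* as its markers.

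*TFAP2A* and *TFAP2C* were found in the same cells at D6 beyond their share in the gate. Of 692 *TFAP2A*-positive embryonic cells of D6, 173 also had *TFAP2C*, 25% [21.8, 28.4], against 9.95% [9.08, 10.9] of the 4362 negative cells. At D4 the figures were 54 of 324, 16.7% [12.8, 21.2], against 9.79% [8.81, 10.8]. Positive and negative cells had near-equal median totals, 13884 and 14298 UMIs at D6 and 15050 and 15168.5 at D4. After thinning, the D6 shares were 11.9% [8.41, 16.1] and 2.92% [2.46, 3.44], and those of D4 were 2.11% [0.256, 7.40] and 2.62% [2.13, 3.20], where the depth left too few cells to see a difference. In levels, *TFAP2C* was at 23.8 CPM in *TFAP2A*-positive and 7.69 in negative cells of D6, a log2 ratio of 1.63 [1.40, 1.85], and at D4 the ratio was 0.77 [0.36, 1.15], short of 2-fold and 0.19 after thinning. *DLX5* also went with *TFAP2A*: 34 of its 40 cells at D6 had *TFAP2A*, 85% [70.2, 94.3], against 13.1% of cells without *DLX5*, and 22 had *TFAP2C*, 55% [38.5, 70.7]. Its level was 5.11 CPM in *TFAP2A*-positive and 0.123 in negative cells, a log2 ratio of 5.37 [4.29, 6.66]. *GABRP* did not follow: 1.16% [0.500, 2.27] of *TFAP2A*-positive and 1.67% [1.31, 2.10] of negative cells had a UMI at D6, with a log2 ratio of levels of -0.53 [-1.79, 0.52], and -1.39 [-4.47, 0.54] at D4 from 2 UMIs. Seen from *GABRP*, its positive cells of D6 had *TFAP2A* at 17.0 and its negative cells at 20.1 CPM. No cell of the gate had both *GABRP* and *DLX5*, at D6 0% [0, 8.81] of the 40 *DLX5* cells. That interval includes the 1.615% of cells without *DLX5* that had *GABRP*, so it shows no separation of the genes. Of all genes measured, 1.33% were higher in *TFAP2A*-positive cells of D6, *TFAP2C* and *DLX5* among them, and 0.91% at D4, with no member among them. *TFAP2E*, another AP-2 factor, was higher too at D6, at 1.70 [0.15, 3.11] from 7 UMIs against 14. Per-cell Pearson correlations over the 5054 cells of D6, which share 1 library, were 0.21 for *TFAP2A* with *TFAP2C*, 0.20 with *DLX5* and -0.007 with *GABRP*.

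**Figure D2:**
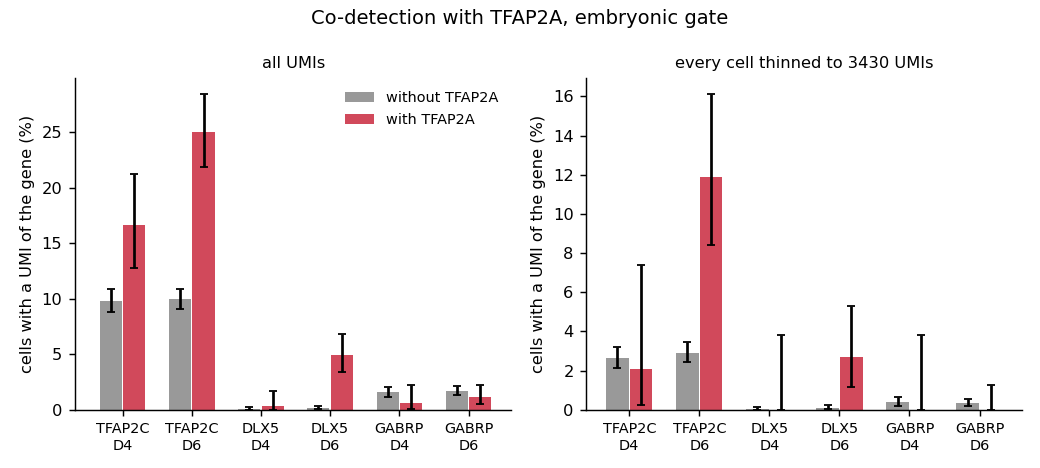
Share of embryonic gate cells (%) with a UMI of *TFAP2C*, *DLX5* or *GABRP*, among cells without (grey) and with (red) a *TFAP2A* UMI at D4 and D6, with exact Clopper-Pearson 95% intervals, at full depth (left) and with every cell thinned to the lower limit of the cell filter (right). *TFAP2C* at D6 stands at 25% against 9.95% at full depth and 11.9% against 2.92% after thinning, and *GABRP* is not higher in cells with *TFAP2A*.

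Splitting the embryonic gate of D6 by both factors separated 3928 cells with neither, 434 with *TFAP2C* only, 519 with *TFAP2A* only and 173 with both. These are classes of detection, and a cell without a UMI may still hold the transcript. Of the positive cells, 83.5% had 1 UMI for *TFAP2C* and 49.4% for *TFAP2A*. The split was not repeated after thinning. *DLX5* was at 0.103 CPM in cells with neither, 0.293 with *TFAP2C* only, 1.89 with *TFAP2A* only and 14.5 [10.2, 20.0] with both, so that 37 of its 59 UMIs lay in 3.42% of the cells. *HAND1*, a factor of extra-embryonic mesoderm and amnion, was at 0.448, 1.76, 1.89 and 21.6 CPM in the same order, and *ISL1* at 0.310, 1.46, 1.89 and 9.41. The paper lists *HAND1* among markers of an embryonic mesoderm-like state that it reports at D6. In all kept cells of D6 with at most 2 *FN1* UMIs and no *TFAP2A* UMI, *HAND1* was at 5.90 CPM. Over cells with neither, the cells with both were higher by log2 ratios of 7.13 [5.88, 8.67] for *DLX5*, 5.59 [4.89, 6.32] for *HAND1* and 4.92 [3.98, 5.89] for *ISL1*. *GATA2* and *GATA3*, zinc finger factors of surface ectoderm and trophoblast, went with *TFAP2A*. *GATA3* was at 3.03 CPM in cells with neither, 2.78 with *TFAP2C* only, 11.9 with *TFAP2A* only and 32.6 with both, its log2 ratios over cells with neither being -0.13 [-0.89, 0.56], 1.97 [1.58, 2.34] and 3.42 [3.03, 3.81]. *GATA2* had ratios of 0.95 [-0.04, 1.84], 2.56 [1.95, 3.16] and 3.43 [2.71, 4.11]. *MSX2*, a homeobox target of BMP, was at 6.00, 8.93, 30.6 and 49.4 CPM. *BMP4*, the ligand, was at 6.58, 12.4, 16.0 and 29.4 CPM. *GABRP* had 68, 7, 8 and 0 UMIs, at 1.17 CPM [0.910, 1.49] with neither and 0 [0, 1.45] with both, intervals that overlap. The pluripotency factor *POU5F1* was at 1354 CPM in cells with neither and 1253 with both, and *SOX2* at 294.5 and 263 CPM, both genes being part of the gate. *APOA1*, a hypoblast transcript, was at 91.7, 74.8, 71.9 and 134.5 CPM, so cells with both also carried more of it; its part in the other values was not tested. Median totals were 14195.5, 15327, 13727 and 14143 UMIs.

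**Figure D3:**
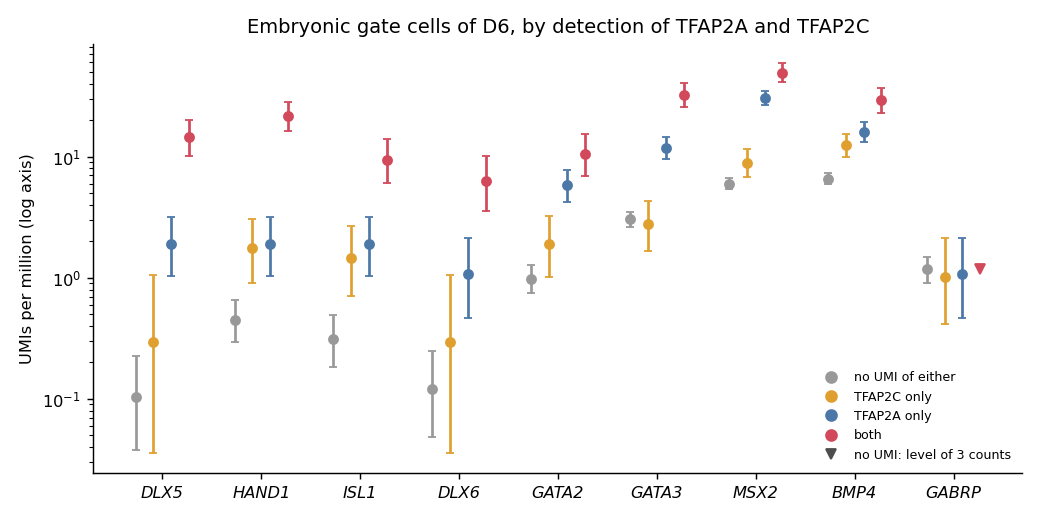
Levels in UMIs per 1000000 (log axis) of 9 genes in embryonic gate cells of D6 with neither *TFAP2A* nor *TFAP2C* (grey), *TFAP2C* only (orange), *TFAP2A* only (blue) or both (red), with exact Poisson 95% intervals; the triangle is the level of 3 counts for *GABRP*, which had no UMI in cells with both. For all genes but *GABRP* the cells with both are highest, with *DLX5* at 14.5 CPM against 0.103 in cells with neither.

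At D4 the same split gave 3060 cells with neither, 332 with *TFAP2C* only, 270 with *TFAP2A* only and 54 with both. *GATA2* was at 2.06, 2.32, 7.86 and 11.1 CPM and *MSX2* at 3.38, 5.17, 10.9 and 13.3 CPM in this order, so point values were higher with *TFAP2A* at D4 too. *ISL1* had 2 UMIs in cells with *TFAP2A* only, 0.476 CPM, and none in cells with both, against 32 in cells with neither, 0.680 CPM. Its log2 ratio with *TFAP2A* only over neither was -0.51 [-3.62, 1.46], an interval that includes 0. In cells with both the upper bound was 2.67. *HAND1* had 7 UMIs in cells with *TFAP2A* only, 1.67 CPM, against 10 in cells with neither, 0.212 CPM, a log2 ratio of 2.97 [1.34, 4.51], and none in cells with both. *DLX5* had 1 in cells with both.

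The levels also went with the number of *TFAP2A* UMIs in a cell. Among kept cells of D6 with at most 2 *FN1* UMIs, *TFAP2C* was at 7.54 CPM in 5131 cells without *TFAP2A*, 16.3 at 1 UMI, 31.7 at 2, 35.8 at 3 to 5 and 44.2 [28.3, 65.7] at 6 or more (35 cells). *DLX5* was at 0.179, 3.74, 3.70, 10.6 and 22.1 [11.4, 38.6] CPM and *ISL1* at 0.978, 2.80, 6.17, 8.66 and 16.6 [7.57, 31.5] CPM. *GATA3* was at 12.8, 11.6 and 18.9 CPM up to 2 UMIs and at 37.0 and 35.0 above. The cells without *TFAP2A* here included 769 of neither gate. In the embryonic gate alone, *GATA3* was at 3.03 CPM with neither factor, 2.78 with *TFAP2C* only and 11.9 with *TFAP2A* only. *GABRP* showed no such order, at 1.09, 0.747, 1.65, 0.394 and 1.84 CPM from 79, 4, 4, 1 and 1 UMIs. *POU5F1* was at 1266, 1348, 1356, 1277 and 1228 CPM, and its median stayed at 17 to 18 UMIs per cell in every bin, with *SOX2* at 3 to 4. At D4, *TFAP2C* was at 6.95, 10.5, 20.9 and 18.5 [8.46, 35.1] CPM up to 3 to 5 UMIs, the last bin having 28 cells, and *SOX2* at 248, 270, 315 and 220 [180, 266] CPM.

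**Figure D4:**
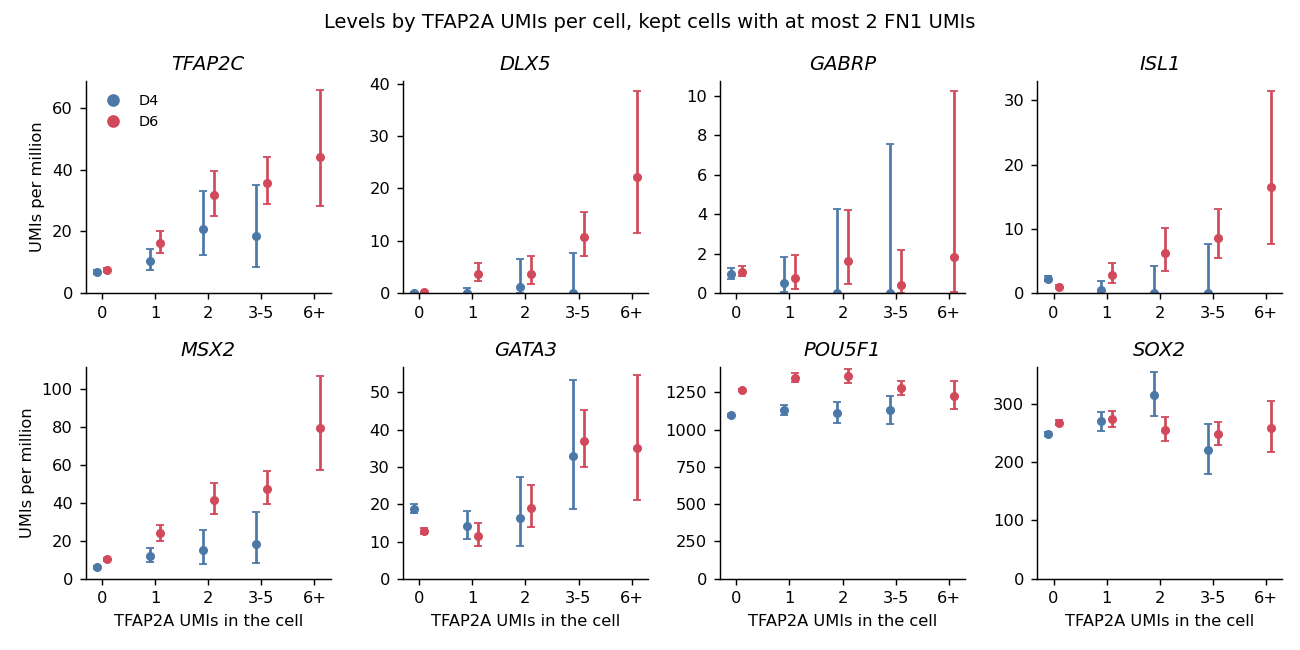
Levels in UMIs per 1000000 of 8 genes in kept cells with at most 2 *FN1* UMIs, by the number of *TFAP2A* UMIs in the cell, at D4 (blue) and D6 (red), with exact Poisson 95% intervals and axes from 0; the single D4 cell with 6 or more is left out. *TFAP2C*, *DLX5*, *ISL1* and *MSX2* of D6 climb with *TFAP2A*, *GABRP* does not, and *POU5F1* stays between 1228 and 1356 CPM at D6.

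Cells with 3 or more *TFAP2A* UMIs, called *TFAP2A*-high, lay mostly within the embryonic gate. Of 237 such cells at D6, 189 were in it, 79.7% [74.1, 84.7], 17 were in no gate with low *FN1*, 31 in no gate with 3 or more *FN1* UMIs, and 0 in the hypoblast gate. Only 1 had fewer than 5 *POU5F1* UMIs, while 24, 10.1% [6.60, 14.7], had no *SOX2* UMI. At D4, 28 of 29 were in the embryonic gate. Scrublet marked 11 of the 31 high cells outside the gates with *FN1*, 35.5%, and 11 of the 692 *TFAP2A*-positive embryonic cells, 1.59%. Cells of neither gate at D6 had *TFAP2A* at 16.9 CPM where *FN1* was low and 17.5 CPM where it was not, and *TFAP2C* at 10.5 and 9.01 CPM, close to the embryonic gate.

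Cells with 3 or more of the 7 genes numbered 2 at D4 and 37 at D6. Of the 37, 20 were in the embryonic gate, 0.396% of it, 7 were in no gate with low *FN1* and 10 in no gate with *FN1*. The highest number of members was 5, in 1 cell of neither gate with 3 *TFAP2A*, 5 *TFAP2C*, 1 *GABRP*, 1 *WNT6* and 1 *DLX5* UMI beside 17 of *POU5F1*, 24 of *FN1*, 10 of *HAND1* and 3 of *ISL1*. In the embryonic gate 76.3% of D6 cells had no member, 19.7% had 1 and 3.64% had 2. In the hypoblast gate 98.5% had none and no cell had more than 1.

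Other genes were compared between 206 *TFAP2A*-high and 5131 *TFAP2A*-null cells of D6 with at most 2 *FN1* UMIs, where 1.82% of 19469 measured genes were higher and 1.94% lower, and then within the embryonic gate alone, where 1.96% were higher and 1.15% lower. Of 6 late amnion genes other than the members, known from primate work, 5 were higher, with a median log2 ratio of 1.87 against 0.03 over all genes: *ISL1* at 3.36 [2.70, 3.99], *MSX2* at 2.37 [2.12, 2.62], *PRKD1*, a kinase, at 1.95 [1.56, 2.33], *BMP4* at 1.76 [1.44, 2.08] and *HEY1*, a Notch target, at 1.51 [0.13, 2.64], while *GSTO1* was at 0.10. The study singled these genes out in the same libraries, so their count is no independent evidence of direction. Within the gate *HEY1* had an interval that includes 0 and the median was 2.00. None of 4 measured early amnion genes, *FASN*, *MVD*, *SDC1* and *SLC1A3*, was higher or lower, with a median of -0.18. The 6 late amnion genes were not particular to embryonic cells. Summed, they were at 160 CPM in embryonic and 463 in hypoblast cells of D4, and at 143 and 367 CPM at D6. At D4, 5 were called lower in embryonic cells, against 14% of all genes. At D6, 3 were, against 2877 of 20708 genes, while 1 had an interval above 0.

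Of 7 BMP targets 5 were higher, the inhibitors of differentiation *ID1*, *ID2*, *ID3* and *ID4* and the decoy receptor *BAMBI*, and none lower, with a median of 1.12. The study had already named *ID1* to *ID4* for the amnion state of the same libraries, so this count is no independent evidence of direction either. *ID1* was at 2599 against 894 CPM and *ID4* at 242 against 54.4, its log2 ratio being 2.15 [2.04, 2.26]. Of 12 measured genes of the wider amnion and surface ectoderm list 5 were higher, *CDX2*, a caudal homeobox factor, at 4.03 [2.62, 5.37] from 9 UMIs, *GATA2* at 3.38, *GATA3* at 1.51, *GRHL2*, an epithelial factor, at 1.51 and *HAND1* at 1.31. *MSX1* was lower, at -1.88 [-4.94, -0.003]. Within the gate the same 5 were higher, *HAND1* at 4.30 [3.58, 5.01] and *GATA3* at 3.33 [2.95, 3.71], and *MSX1* was at 0.29 with an interval that includes 0. The keratins differed by less than 2-fold in both comparisons: *KRT7* at 0.79, *KRT8* at -0.12, *KRT18* at -0.38 and *KRT19* at -0.02. Between the gates, 8 of the 12 measured genes of the wider list were called lower in embryonic than hypoblast cells at D4 and 3 higher. At D6, 8 were lower and 2 higher. Of all genes, 14% were lower and 14.5% higher at D4, and 2877 of 20708 lower and 19.3% higher at D6.

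*DLX6*, the neighbour of *DLX5*, was higher by 5.27 [4.11, 6.50], from 18 UMIs, *DLX3* by 3.56 [2.13, 4.87] and *DLX4* by 1.06 [0.07, 1.91], 3 of 6 measured on the list of *DLX* and *WNT* relatives, while *WNT3*, *WNT5A* and *WNT5B* had intervals that include 0. None of 7 measured genes of the AP-2 family and its partners was called, *TFAP2E* at 2.33 [-0.11, 4.18] from 3 UMIs being the farthest, and *TFAP2D* had no UMI. Among the 12 trophoblast genes 2 were measured and neither was called; *CGA*, *CGB5*, *VGLL1*, *XAGE2* and *HSD3B1* had no UMI in either group. None of 7 epiblast genes was called, with a median of 0.04: 3 had an interval above 0, *TDGF1* at 0.41 [0.30, 0.53], *LIN28A* at 0.37 [0.29, 0.46] and *L1TD1* at 0.14, and 1 an interval below 0, *UTF1* at -0.21 [-0.43, -0.003]. *NANOG* was at -0.21 [-0.45, 0.01], and at D4 it was called lower, at -1.02 [-1.94, -0.25], and at -1.06 [-1.97, -0.28] within the gate. Of all measured genes of D4, 167 of 18448 were called lower, and 142 of 18032 within the gate.

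Of 7 hypoblast genes 6 were lower, with a median of -2.67, against 0 within the embryonic gate, where the median was -0.03; the wider null group held cells of neither gate. Of 6 germ cell genes *DPPA3* was lower, at -2.69 [-4.97, -1.13], and of 3 measured neural crest genes *FOXD3*, also a pluripotency factor, at -1.24 [-1.87, -0.67]; both remained lower in the gate, at -2.51 and -1.26. Of 7 streak and mesoderm genes *EOMES*, *MESP1* and *PDGFRA* were lower and none higher. The paper names *PDGFRA* as a marker of hypoblast-like cells. Summed, the 7 genes were at 18.2 CPM in embryonic and 340 in hypoblast cells of D6, and the wider null group held cells of neither gate here too. Within the embryonic gate *PDGFRA* alone was lower. There *TBXT*, the brachyury gene, at 2.10 [0.69, 3.28] from 7 UMIs, and *MIXL1*, at 1.59 [0.94, 2.19], were higher. At D4, with 29 high cells, 1.38% of genes were higher. Among them were *TFAP2C*, at 1.51 [0.44, 2.40], *MSX2*, at 1.73 [0.65, 2.62], *GATA2*, at 1.98 [0.09, 3.38] from 4 UMIs, and *ID4*, at 1.01 [0.64, 1.35]. *MSX2* was the 1 gene called of 6 late amnion genes. *ID4* was the 1 called of 7 BMP targets, of which 5 had an interval above 0. *GATA2* was the 1 called of 11 measured on the wider amnion list, where 3 had an interval above 0 and 3 below. *ISL1* had no UMI in the 29 high cells against 134, or 2.255 CPM, in null cells. The upper bound of its log2 ratio was 1.72, so these few cells do not set *ISL1* lower. Within the gate *GATA2* was at 1.56 [-0.74, 3.15] from 3 UMIs, an interval that includes 0, and *GATA3*, at 2.50 [1.75, 3.16], and *IGFBP3*, a binding protein of growth factors, at 1.41 [0.08, 2.47], were the called genes of its list. Of 18032 genes measured within the gate at D4, 256 were called higher.

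**Figure D5:**
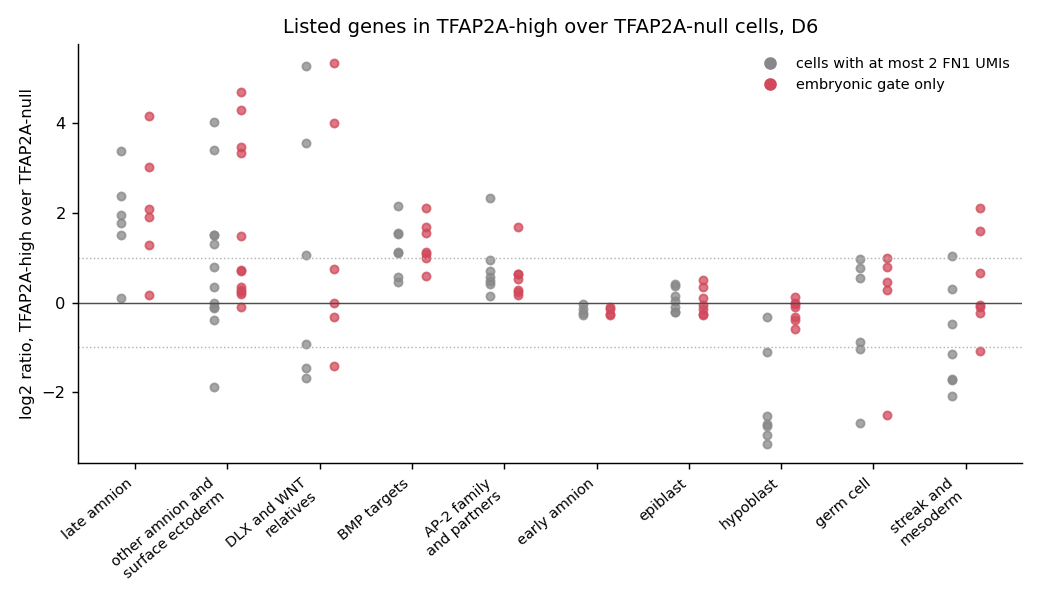
Log2 ratio of levels in *TFAP2A*-high (3 or more UMIs) over *TFAP2A*-null cells of D6 for the measured genes of 10 lists, 1 point a gene, among cells with at most 2 *FN1* UMIs (grey) and embryonic gate cells (red); genes with no UMI in a group are not drawn, and dotted lines mark 2-fold. Late amnion genes (median 1.87) and BMP targets (1.12) lie above 0, and early amnion and epiblast genes near 0. Hypoblast genes have a median of -2.67 among the grey points and -0.03 among the red.

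The genes whose level went most with *TFAP2A* at D6 were ranked by the lower bound of that log2 ratio among genes with at least 30 UMIs in the high cells. The first 15 were *GRHL3*, *PCAT14*, *GATA2*, *HPGD*, *ISL1*, *PLA2G2A*, *ATP6V0A4*, *CLDN4*, *ANXA9*, *C11orf96*, *FAM20A*, *NKX1-2*, *MSX2*, *ID4* and *SAMD11*, over 206 high cells of 1 library. *GRHL3*, a grainyhead factor of surface ectoderm, had 18.8 CPM in high and 0.455 in null cells, a log2 ratio of 5.37 [4.73, 6.03], and *PCAT14*, a long non-coding RNA, had 429.5 against 39.4 CPM, 3.45 [3.35, 3.54]. *HPGD*, which breaks down prostaglandins, was at 46.4 against 5.68 CPM, and *CLDN4*, a tight junction protein, at 19.5 against 2.29 CPM. In the D4 library, which the ranking did not use, 10 of the 15 had a ratio above 0 and 8 an interval above 0, *PCAT14* at 2.56 [2.26, 2.84], *GRHL3* at 3.29 [0.17, 5.30] from 2 UMIs and *SAMD11* at 1.02 [0.40, 1.58] among them. Of all 18448 genes measured there, 615 had an interval above 0 and 1.38% were called higher. Their median ratio of 0.25 adds 0.5 counts to each group, unlike the ratios of the 15, so it is no background for the 10 of 15. The share of all genes with a ratio above 0 was not counted. *HPGD* was at -0.31 [-3.36, 1.56] there, and *ISL1*, *PLA2G2A*, *CLDN4* and *ANXA9* had no UMI in high cells. The upper bounds of these genes without a UMI ran from 1.72 for *ISL1* to 5.04 for *PLA2G2A*, so none was set lower. *DLX5* and *TFAP2C*, with D6 ratios of 6.14 [5.21, 7.17] and 2.31 [2.00, 2.60], are members and were not ranked.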

How the data were processed

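Single-cell RNA-seq (10x 3' chemistry) of picked hEEs gave 1 library at D4 and 1 at D6. The authors deposited UMI counts per gene and barcode, made with Cell Ranger 6.0.1 against hg38; their notes also name Seurat 4.0.1 and R 4.0.3. These counts were used as deposited, over 10943 barcodes (151712246 UMIs) at D4 and 11483 (150320228) at D6. The 7 bisulfite libraries of the series were not analysed here.

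Cells with 3430 to 27500 UMIs and at most 10% mitochondrial UMIs were kept and gated as the report states. A level is the summed UMIs of a gene per 1000000 summed UMIs of a group, and since 3' UMIs are not per length, levels are compared within a gene only. Intervals are exact, Poisson for levels, Clopper-Pearson for shares and conditional binomial for ratios, at 95%. A gene was measured with 10 or more UMIs over both groups and called at 2-fold or more with an interval leaving out 0. A level or share of 0 was given the limit that 3 counts allow. Cells were thinned without replacement (random seed 7). List medians add 0.5 counts to each group. Scrublet ran within scanpy 1.11.5 and doublets were kept in the values given first. Python 3.11.15, numpy 2.4.6, scipy 1.17.1 and pandas 2.3.3 were used, and the scripts were tested on simulated data.

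With 1 library a day, no test across samples was possible. The named genes are the 7 members, the genes of the marker lists, and the 15 genes with the highest lower bound of the ratio of *TFAP2A*-high over *TFAP2A*-null cells of D6 and at least 30 UMIs in the high cells, members left out. The members and lists were chosen with earlier results of these data known. Alternatives were no cell filter, an upper limit of 20000 UMIs, thinning, stricter and looser gates, doublets left out, the mean over cells, leaving out the 10 highest cells, and a *TFAP2A* minimum of 2 UMIs; lists within the embryonic gate alone were added after seeing the data.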

Additional observations from a re-analysis of the deposited data

Results flagged for a closer look

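*DLX5* stood on opposite sides of 0 on the 2 days when the embryonic gate was set against the hypoblast gate, the log2 ratio being -2.50 in the D4 library and 2.72 in the D6 library. The D4 ratio rests on 3 UMIs in embryonic against 14 in hypoblast cells, and the D6 ratio on 59 against 5. The D4 interval included 0 with an upper limit of 20000 UMIs a cell, at -1.74 [-4.24, 0.22], and after thinning, at -2.46 [-7.98, 0.59], as did the D6 interval after thinning, at 1.61 [-0.25, 4.07]. The difference between the days was not tested, since each day is 1 library.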

How the results depend on the processing

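Of 162 alternative values for 21 level ratios, 145 lay within the interval first given, 17 did not and 0 changed the sign of a ratio whose interval left out 0. Among the 14 such ratios all 109 alternatives kept their sign, and in 8 the alternative's own interval included 0. The looser hypoblast gate took every cell with 3 or more *FN1* UMIs, and so added the class of neither gate with *FN1*. In it, the log2 ratio of D6 over D4 was 1.95 for *TFAP2A*, 1.08 for *TFAP2C* and 0.81 for *DLX5*. From D4 to D6 the added class went from 38 to 202, 52 to 104 and 0 to 17 UMIs of these genes. The hypoblast gate first given went from 26 to 19, 10 to 13 and 14 to 5. With looser gates, embryonic over hypoblast cells was 2.82 for *TFAP2A* and 2.91 for *TFAP2C* at D4. At D6 it was 2.32, 2.24 and, for *DLX5*, 1.31, and *GABRP* was at 0.86, short of 2-fold. With stricter gates, D6 over D4 was 1.12 for *TFAP2A* in embryonic and -1.93 for *GABRP* in hypoblast cells, and *GABRP* was at 2.44 for embryonic over hypoblast at D6. With thinned cells, *TFAP2C* was at 2.19 for D6 over D4 in hypoblast cells, 6.80 for embryonic over hypoblast at D4, and 0.19 for *TFAP2A*-positive over negative cells at D4. Without the 10 highest cells, embryonic over hypoblast at D6 was 6.43 for *TFAP2A* and 2.72 for *GABRP*. This left 1395 embryonic and 9 hypoblast UMIs of *TFAP2A*, and 71 and 6 of *GABRP*. The hypoblast gate had few positive cells to drop from, which raises both ratios by itself. With *TFAP2A*-positive cells taken at 2 or more UMIs, *TFAP2C* was at 1.43 at D4 and 2.07 at D6. In 11 cases the alternative left no UMI in a group and gave no value, most of them *DLX5* or *TFAP2C* without the 10 highest cells. Apart from fewer cells or UMIs and the cells that the looser hypoblast gate added, the cause of these shifts was not tested.

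Within the embryonic gate alone, chosen after seeing the data, genes lower in *TFAP2A*-high cells of D6 numbered 218 in place of 377. At D4, all genes lower numbered 142 in place of 167 and higher 256 in place of 254. Hypoblast genes lower numbered 1 in place of 4 at D4 and 0 in place of 6 at D6, other amnion genes higher 2 (*GATA3* and *IGFBP3*) in place of 1 (*GATA2*) at D4 and lower 0 in place of 1 at D6, *DLX* and *WNT* relatives higher 0 in place of 1 at D4, and BMP targets higher 2 in place of 1 at D4. Streak and mesoderm genes lower numbered 0 in place of 1 at D4 and 1 in place of 3 at D6, and higher 2 in place of 0 at D6. Of the 15 genes most like *TFAP2A*, 13 remained with a minimum of 2 UMIs, 9 without a rule on *FN1* and 12 within the gate. No paired analysis was possible because each day was 1 library.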
